A study of Mus musculus with 12 samples.

Results

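The sarcomere, the contractile unit of striated muscle, is built from proteins of which many exist in a fast and a slow version encoded by separate genes. The genes described here are 35 of these sarcomere genes, among 49315 genes counted in the quadriceps femoris of mice, a thigh muscle that extends the knee. They were taken as a named list without the myosin heavy chains, and were sorted by textbook knowledge into 8 slow, 12 fast and 15 general members. RNA was sequenced in 12 libraries of C57BL/6 mice, an inbred laboratory strain, in 4 groups of 3 libraries each. Young mice were 18 weeks and old mice 28 months of age. At each age 1 group was sedentary and the other had trained on a treadmill over 8 weeks, in 3 weekly sessions of 40 minutes at 8 to 12 m/min. No gene was altered in any of these groups, as far as the labels say. The title of the series names the adaptability of aged muscle to exercise as its question.

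Contraction begins when calcium binds troponin C, which releases the grip of troponin I on the thin filament, while troponin T ties the complex to tropomyosin lying along actin. On the thick filament, an essential and a regulatory light chain stiffen the neck of each myosin head, and myosin-binding protein C sits beside the heads. Z-discs, held together by alpha-actinin, anchor the thin filaments at the ends of the sarcomere, and the M-band, held together by myomesins, links the thick filaments in its middle. A mouse quadriceps consists mostly of fast fibres, with few slow fibres in its deep part.

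Levels are CPM, counts scaled to a common library total, after trimmed-mean (TMM) scaling of the libraries, and differences are log2 fold changes ± SE from edgeR's quasi-likelihood test, with p-values adjusted over 15304 genes and 0.05 as the threshold. Library totals ran from 23.3 to 27.6 M counts, and the 35 genes held 14.1% to 16.0% of them. All 35 passed the filter on low counts. Summed markers of muscle fibres (Ckm, Des, Myh4, Myh1, Pvalb and the member Actn3) reached 93882 to 132505 CPM of the plain library total. These genes mark skeletal muscle rich in fast fibres and do not tell quadriceps from other such muscles. Skin markers summed to 399.9 CPM in young sedentary library 2 against 1.75 to 3.35 CPM in the others, and adipocyte markers to 2169 CPM in young sedentary library 1 and 1758 CPM in old exercised library 6 against 160 to 461 CPM elsewhere. Xist, transcribed in females, marked 2 libraries of young sedentary, 2 of young exercised, 0 of old sedentary and 1 of old exercised mice. The labels do not state whether the 3 libraries of a group came from separate animals, and p-values therefore cover only the spread among them. Values of a group are given below in the order of the library numbers, which are 1, 2 and 3 in young sedentary, 7, 8 and 10 in young exercised, and 4, 5 and 6 in both old groups.

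The stretches of genome just before 4 of these genes give the sequence context of slow troponin C (Tnnc1), whose RNA varied widely between libraries, and of alpha-actinin 2 (Actn2) and the myomesins Myom3 and Myom1, which were higher in old muscle. They are RefSeq promoter sequences of build GRCm38.p6, written 5′ to 3′ on the gene's strand and ended where the gene begins in the deposited coordinates. Capitals mark matches, on either strand, to TATAAA, to the E-box CANNTG bound by myogenic factors such as MyoD, to the MCAT motif CATTCC bound by TEAD factors, to the MEF2 site or to the CArG box of serum response factor; matches may overlap. The stretch before Tnnc1 is chr14:31208062-31208311, plus strand, and that before Actn2 is chr13:12340761-12340982, minus strand. The stretch before Myom3 is chr4:135759465-135759714, plus strand, and that before Myom1 is chr17:71019307-71019520, plus strand.
Tnnc1: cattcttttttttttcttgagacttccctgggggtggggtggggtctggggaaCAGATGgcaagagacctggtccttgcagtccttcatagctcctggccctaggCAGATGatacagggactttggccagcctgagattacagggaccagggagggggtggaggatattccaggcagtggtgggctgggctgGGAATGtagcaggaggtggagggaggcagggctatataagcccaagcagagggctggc
Actn2: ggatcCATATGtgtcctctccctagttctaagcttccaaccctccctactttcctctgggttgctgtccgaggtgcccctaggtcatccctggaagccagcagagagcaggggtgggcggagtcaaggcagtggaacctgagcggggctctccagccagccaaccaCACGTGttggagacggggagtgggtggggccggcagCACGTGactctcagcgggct
Myom3: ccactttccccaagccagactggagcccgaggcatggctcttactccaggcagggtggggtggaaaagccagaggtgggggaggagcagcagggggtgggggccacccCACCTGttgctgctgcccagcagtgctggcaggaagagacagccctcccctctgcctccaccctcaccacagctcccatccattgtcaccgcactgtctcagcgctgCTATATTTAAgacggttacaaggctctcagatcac
Myom1: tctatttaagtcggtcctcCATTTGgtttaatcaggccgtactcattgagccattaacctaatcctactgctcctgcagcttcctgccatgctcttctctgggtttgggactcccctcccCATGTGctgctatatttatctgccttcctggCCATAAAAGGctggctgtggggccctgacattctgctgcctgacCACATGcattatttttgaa
The Tnnc1 stretch held E-boxes and an MCAT motif, the Actn2 stretch E-boxes alone, the Myom3 stretch an E-box and a MEF2 site, and the Myom1 stretch E-boxes and a CArG box. In the 250 bases before the RefSeq start, 24 of the 35 members could be searched. An E-box occurred in 95.8% of these members and in 69.3% of the 27025 genes of the promoter table. MCAT occurred in 29.2% of members and 14.4% of all genes, the MEF2 site in 16.7% and 3.42%, the CArG box in 16.7% and 1.62%, and TATAAA in 20.8% and 14.3%. These are matches of letters and say nothing of binding in these samples.

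The fast set far outweighed the slow one: the 12 fast members held 7.81% to 9.56% of all counts in a library and the 8 slow members 0.102% to 0.353%. As medians over the 12 libraries in CPM per kb of exon, skeletal alpha-actin (Acta1), the thin filament itself, stood at 15812, fast troponin T (Tnnt3) at 12857 and the fast regulatory light chain (Mylpf) at 8179. Fast troponin I (Tnni2) followed at 5176 CPM per kb, the fast essential light chain (Myl1) at 3866, fast troponin C (Tnnc2) at 3689.5 and alpha-actinin 3 (Actn3) at 3625. The highest slow member was slow myosin-binding protein C (Mybpc1) at 383 CPM per kb, and the lowest slow troponin I (Tnni1) at 1.91. The exons of Tnnc2 are overlapped over 74% of their length by Ube2c on the opposite strand, which measured 241 to 349 CPM. Those of Mybph are overlapped over 49.9% by Adora1, at 5.13 to 22.0 CPM. The strand setting of the counting was not given in the sources used here. The levels of Tnnc2 and Mybph may therefore hold reads of these neighbours or lack reads shared with them, and neither was tested.

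The slow members varied widely between libraries of the same group. Over the 12 libraries the median SD of log2 CPM was 2.44 for the 8 slow members, 0.22 for the 12 fast, 0.42 for the 15 general members and 0.27 for all genes tested. Slow troponin T (Tnnt1) read 70.5, 1.33 and 152 CPM in young sedentary and 1.84, 5.37 and 3.38 CPM in young exercised muscle. In old muscle it read 1.23, 102 and 12.8 CPM when sedentary and 29.2, 35.4 and 17.6 CPM when exercised. Its highest library stood 124-fold above its lowest, and both of these were sedentary. Tnni1, the inhibitory subunit of slow fibres, measured 34.0, 0.976 and 83.5 CPM in young sedentary, 1, 2.90 and 1.14 in young exercised, 0.707, 52.4 and 6.33 in old sedentary and 14.8, 16.2 and 7.42 in old exercised libraries. Tnnc1, the calcium sensor of slow fibres, measured 49.0, 0.703 and 107 CPM in young sedentary, 0.794, 3.22 and 1.90 in young exercised, 0.521, 67.8 and 7.42 in old sedentary and 18.3, 23.7 and 8.89 in old exercised libraries. All 3 slow troponins were high in young sedentary 3, young sedentary 1 and old sedentary 5, and at 0.521 to 1.84 CPM in young sedentary 2, young exercised 7 and old sedentary 4.

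The slow light chains spread over an even wider range. Myl2, the slow regulatory light chain, was at 93.9, 1.91 and 222 CPM in young sedentary and 2.26, 15.3 and 3.98 CPM in young exercised muscle, and at 1, 138 and 18.2 CPM in old sedentary and 57.7, 85.7 and 22.5 CPM in old exercised muscle. Myl3, the slow essential light chain, was at 147, 3.32 and 358 CPM in young sedentary and 9.03, 24.9 and 7.23 CPM in young exercised muscle, and at 0.483, 234 and 36.7 CPM in old sedentary and 97.9, 161 and 28.7 CPM in old exercised muscle. The range of Myl3 was 741-fold, the widest of the 35 members. Slow tropomyosin (Tpm3), which covers the myosin-binding sites on actin, varied 15.9-fold: it measured 136, 29.4 and 271 CPM in young sedentary, 25.9, 30.0 and 24.7 in young exercised, 17.0, 174 and 38.7 in old sedentary and 61.6, 76.9 and 45.9 in old exercised libraries. Tpm3 also encodes tropomyosin forms found outside muscle fibres, and its counts do not separate them.

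Myoz2, the slow-fibre myozenin of the Z-disc, measured 72.5, 11.2 and 151 CPM in young sedentary, 9.95, 27.3 and 6.47 in young exercised, 6.92, 79.6 and 53.5 in old sedentary and 91.1, 94.2 and 35.8 in old exercised libraries. Mybpc1, counted here as slow but also present in fast fibres, read 1877, 981 and 2023 CPM in young sedentary, 1061, 1818 and 1093 in young exercised, 1162, 1741 and 2067 in old sedentary and 1729, 1655 and 1997 in old exercised libraries, a range of only 2.11-fold. Young sedentary 3 was the highest library for 7 of the 8 slow members, old sedentary 6 being the highest for Mybpc1, and old sedentary 4 was the lowest for 6. The slow myosin heavy chain Myh7, which is not a member, was high and low in the same libraries: 246, 1.09 and 635 CPM in young sedentary, 1.84, 16.4 and 5.88 in young exercised, 0.893, 407 and 31.2 in old sedentary and 116, 136 and 46.9 in old exercised libraries. More slow fibres in a sample and more slow RNA per fibre cannot be told apart in bulk RNA. Myh2, the heavy chain of fast oxidative fibres, read 1831, 421 and 3417 CPM in young sedentary, 403, 763 and 231 in young exercised, 296, 3173 and 2662 in old sedentary and 3089, 3636 and 655 in old exercised libraries. Myh1 ranged from 2131 to 8558 CPM and Myh4, the heavy chain of the fastest fibres, from 45652 to 87921 CPM.

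**Figure D1:**
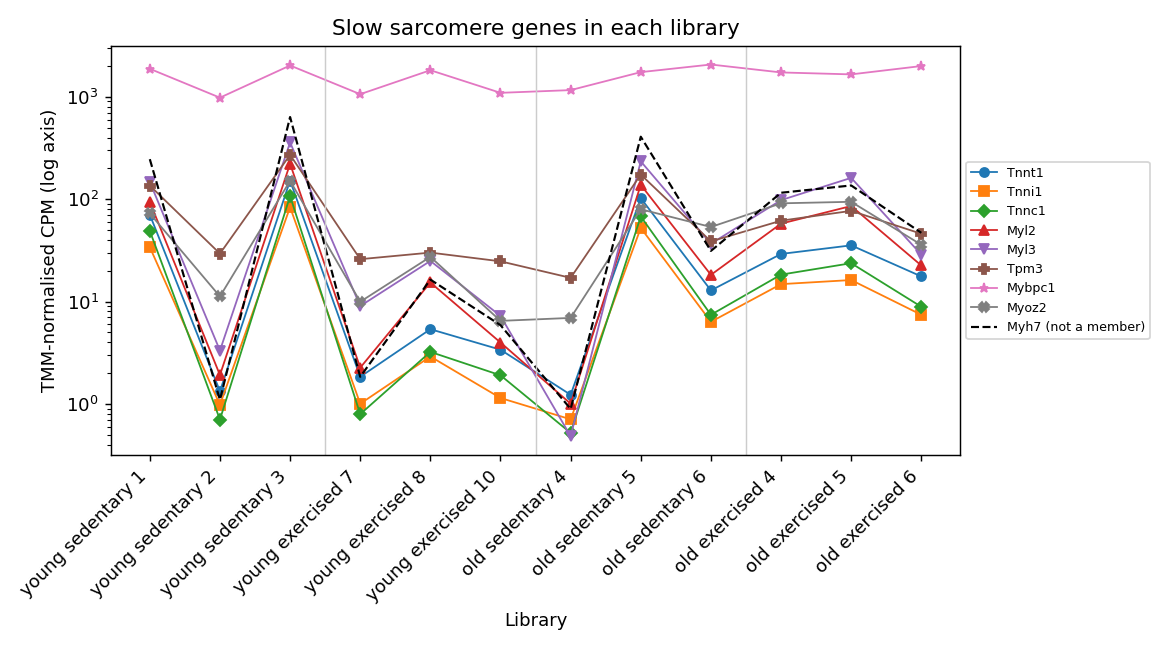
Level of the 8 slow sarcomere genes and of Myh7 in each of the 12 libraries, in TMM-normalised CPM on a log axis, with grey lines between the 4 groups and lines joining a gene's values only to guide the eye. Most slow genes are high and low in the same libraries, from 0.483 CPM (Myl3, old sedentary 4) to 358 CPM (Myl3, young sedentary 3), whereas Mybpc1 stays between 981 and 2067 CPM.

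Age gave calls among the members, and exercise gave none. With the 2 age differences averaged, 5 of 35 members were higher in old muscle, beside 8.92% of all genes, and 1 was lower, beside 10.1%. The higher members were Tcap, Actn2, Myom1, Myom2 and Myom3, and the lower one was Myl1. In sedentary muscle alone 3 members were higher, beside 4.46% of all genes, namely Tcap, Myom1 and Mybpc2, and 0 were lower, beside 5.59%. In exercised muscle alone 3 were higher, beside 4.6% of all genes, namely Actn2, Tcap and Myom3, and 2 were lower, beside 5.27%, namely Myl1 and Tnnc2. The counts of higher members were thus above the background share and those of lower members near or below it, which was not tested. In none of these comparisons did the other 27 members pass.

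Tcap encodes telethonin, which caps the ends of paired titin molecules at the Z-disc, and lies at chr11:98383811-98384953, plus strand. Young muscle held 1135, 1503 and 1309 CPM when sedentary and 1315, 1062 and 1351 CPM when exercised. Old muscle held 2036, 2541 and 2093 CPM when sedentary and 2098, 2306 and 1727 CPM when exercised. Every old library was above every young one. The log2 change with age was 0.76 ± 0.146 in sedentary (edgeR adjusted p = 0.0108) and 0.72 ± 0.146 in exercised muscle (edgeR adjusted p = 0.0114). Of the 35 members, Tcap alone passed in both. The average over both activities was 0.74 ± 0.103 (edgeR adjusted p = 0.00078) and passed in 20 of 20 alternatives. Leaving out 1 library ended the call in sedentary muscle (without old sedentary 5, edgeR adjusted p = 0.0518) or in exercised muscle (without young exercised 8, edgeR adjusted p = 0.0517).

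Actn2 encodes an alpha-actinin of the Z-disc, where it cross-links actin, and lies at chr13:12269426-12340760, minus strand. Its levels were 606, 286 and 962 CPM in young sedentary and 299, 381 and 255 CPM in young exercised libraries. In old muscle they were 613, 1174 and 1037 CPM when sedentary and 1835, 1428 and 1207 CPM when exercised. All old exercised libraries lay above all young exercised ones, while the sedentary groups overlapped. The log2 change with age was 2.26 ± 0.416 in exercised muscle (edgeR adjusted p = 0.0111), which passed in 15 of 15 alternatives. Averaged over both activities it was 1.43 ± 0.287 (edgeR adjusted p = 0.0085, past the threshold in 20 of 20 alternatives), against 0.61 ± 0.399 in sedentary muscle (edgeR adjusted p = 0.36). With log2 Myh7 as a covariate, an alternative chosen after seeing the data, the change was 0.90 in sedentary (edgeR adjusted p = 0.0135) and 1.67 in exercised muscle (edgeR adjusted p = 0.00162).

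The 3 myomesins, which cross-link thick filaments at the M-band, were each higher in old muscle on average. Myom1, the myomesin of all fibres, at chr17:71019521-71126856, plus strand, measured 1725, 1572 and 1756 CPM in young sedentary and 1836, 2162 and 2090.2 CPM in young exercised muscle, and 2341, 2457 and 2184 CPM in old sedentary and 2441, 2282 and 2469 CPM in old exercised muscle. Its old libraries were all above its young ones, by 0.35 ± 0.0636 on the log2 scale over both activities (edgeR adjusted p = 0.00314, past the threshold in 20 of 20 alternatives). Tcap and Myom1 were the 2 members whose 6 young and 6 old libraries did not overlap, beside 3.67% of all genes higher in old muscle in this way. In sedentary muscle alone the change of Myom1 was 0.47 ± 0.09 (edgeR adjusted p = 0.0108). It was no longer past the threshold without old sedentary 4 or without old sedentary 5. This call also ended without the 3 libraries with skin or fat markers, which leaves only young sedentary 3 in its group. The removal of such RNA and the loss of replicates cannot be told apart there. In exercised muscle the change of Myom1 was 0.24 ± 0.0899 (edgeR adjusted p = 0.117).

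Myom2, the M-protein of fast fibres, at chr8:15057653-15133541, plus strand, measured 1769, 1575 and 1442 CPM in young sedentary and 1687, 2215 and 2004 CPM in young exercised muscle, and 2383, 2214 and 1957 CPM in old sedentary and 2666, 2028 and 2527 CPM in old exercised muscle. It rose by 0.37 ± 0.0951 over both activities (edgeR adjusted p = 0.0188), although young exercised and old exercised libraries overlapped. This call held with any 1 library left out. It ended without the 3 libraries with skin or fat markers, a fit that keeps only 1 young sedentary library. Myom3, the third myomesin, at chr4:135759715-135815564, plus strand, measured 39.5, 10.9 and 70.2 CPM in young sedentary, 8.61, 19.1 and 7.91 in young exercised, 24.7, 121 and 93.7 in old sedentary and 125, 131 and 66.9 in old exercised libraries. Every old exercised library was above every young exercised one, with a change of 3.18 ± 0.807 (edgeR adjusted p = 0.0407). This call ended when any 1 of the 6 libraries compared was left out (edgeR adjusted p up to 0.131), with no low-count filter and without the 3 libraries with skin or fat markers. The average over both activities, 2.09 ± 0.545 (edgeR adjusted p = 0.0299), ended without young sedentary 1, young exercised 7 or 10, old sedentary 5 or 6, or old exercised 4 or 5, and passed in the other 5 of 12 such omissions. It also ended with no low-count filter and without those 3 libraries, where only 1 young sedentary library remained. With Myh7 as a covariate its change was 1.46 in sedentary (edgeR adjusted p = 0.0118) and 2.08 in exercised muscle (edgeR adjusted p = 0.0045).

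**Figure D2:**
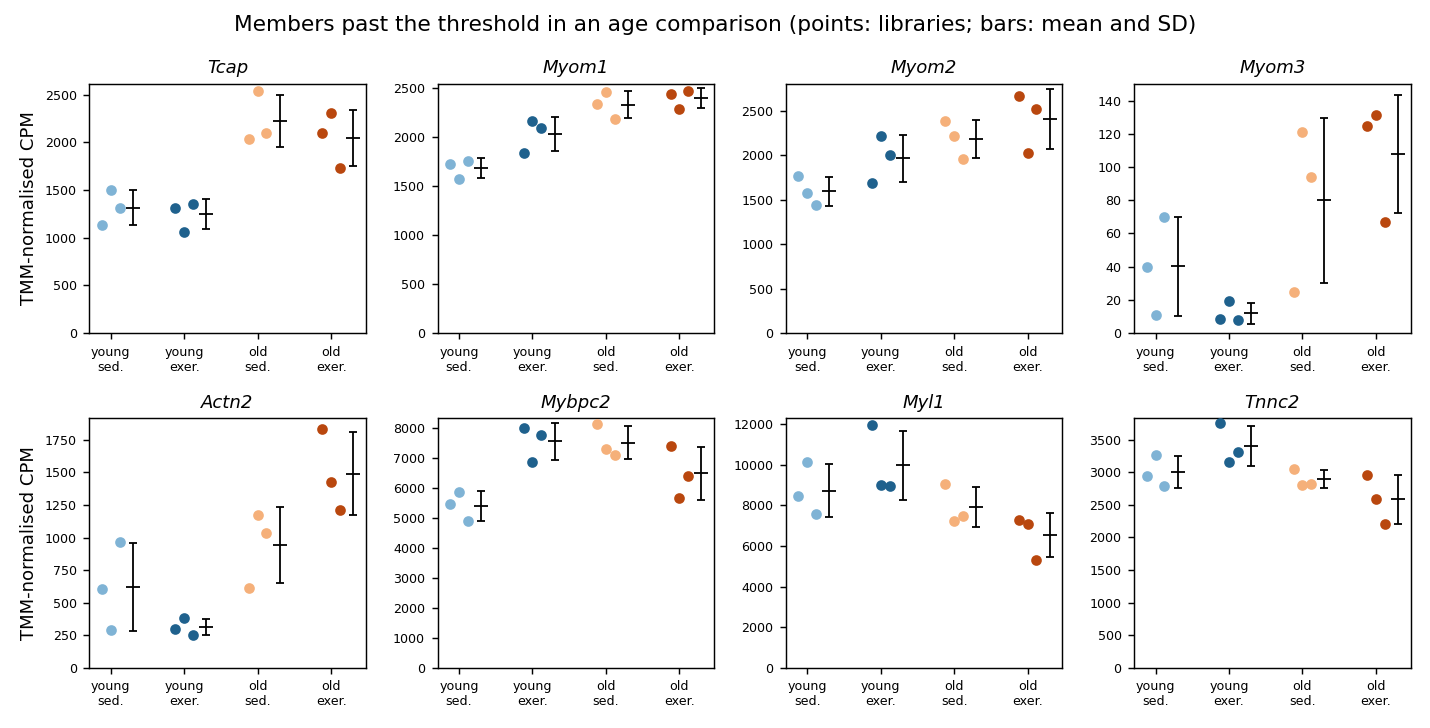
Level in each library, in TMM-normalised CPM from 0, of the 8 members past the threshold in an age comparison, with 1 point per library and bars for the mean and SD of the 3 libraries of a group. Tcap and Myom1 show old libraries above young ones throughout, Actn2 and Myom3 are lowest in young exercised muscle, and Myl1 and Tnnc2 are lowest in old exercised muscle.

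Of the fast members besides Myom2, 3 passed in an age comparison: Mybpc2 in sedentary muscle, Tnnc2 in exercised muscle, and Myl1 in exercised muscle and on average. Mybpc2, fast myosin-binding protein C, at chr7:44501699-44524656, minus strand, measured 5461, 5867 and 4896 CPM in young sedentary and 8024, 6878 and 7791 CPM in young exercised muscle, and 8139, 7306 and 7105 CPM in old sedentary and 7425, 5675 and 6401 CPM in old exercised muscle. Old sedentary libraries all lay above young sedentary ones, by 0.48 ± 0.118 (edgeR adjusted p = 0.0288). The call ended without young sedentary 1 or 3, without old sedentary 4 or 5, and with a term for sex. It also ended without the 3 libraries with skin or fat markers, which leaves only young sedentary 3 in its group. In exercised muscle the change was -0.22 ± 0.117 (edgeR adjusted p = 0.279).

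Myl1, the fast essential light chain, at chr1:66924295-66945404, minus strand, measured 8466, 10149.9 and 7572 CPM in young sedentary and 11962, 9011 and 8969 CPM in young exercised muscle, and 9068, 7228 and 7477 CPM in old sedentary and 7278, 7107 and 5319 CPM in old exercised muscle. All old exercised libraries were below all young exercised ones, with a change of -0.60 ± 0.165 (edgeR adjusted p = 0.0384), while the average over both activities was -0.37 ± 0.116 (edgeR adjusted p = 0.0434). Tnnc2, the calcium sensor of fast fibres, at chr2:164777161-164779967, minus strand, measured 2944, 3271 and 2794 CPM in young sedentary and 3750.4, 3161 and 3313 CPM in young exercised muscle, and 3052, 2811 and 2822 CPM in old sedentary and 2959, 2595 and 2209 CPM in old exercised muscle. It was lower in all old exercised than in all young exercised libraries, with a change of -0.40 ± 0.115 (edgeR adjusted p = 0.0493). Both calls in exercised muscle held without old exercised 4 and ended when any of the other 5 libraries was left out, with an edgeR adjusted p of up to 0.14 for Myl1 and 0.166 for Tnnc2. Both also ended with only these 2 groups fitted, without the 3 libraries with skin or fat markers, and with Myh7 as a covariate, where the changes were -0.43 for Myl1 (edgeR adjusted p = 0.114) and -0.32 for Tnnc2 (edgeR adjusted p = 0.14). The average change of Myl1 held without young sedentary 3, old sedentary 4 or old exercised 4 and ended without any 1 of the other 9 libraries, with no low-count filter and without those 3 libraries. The call of Tnnc2 in exercised muscle also ended with a term for sex and under both other scalings, each of which left 3 members higher and 1 lower.

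Apart from Mybpc2, Myl1, Tnnc2 and, on average, Myom2, no fast member passed in an age comparison. In sedentary muscle 10 of the 12 fast members had a positive change, with a median of 0.18 beside -0.02 for all genes, and in exercised muscle 10 of 12 had a negative one, with a median of -0.26 beside 0.004 for all genes. Myom2 at 0.45 ± 0.135 and Myoz3, a myozenin of fast fibres, at 0.62 ± 0.182 were the nearest to the threshold in sedentary muscle (edgeR adjusted p = 0.0525 for each). The slow members did not pass either. In exercised muscle 7 of the 8 slow members, all but Mybpc1, were higher in every old library than in every young one, and over all 35 members 12 were so, beside 14.6% of all genes. Their log2 changes had a median of 2.86 over the 8, with edgeR adjusted p from 0.237 to 0.482. When only these 2 groups were fitted, so that the sedentary libraries no longer set the spread, Tnnt1, Tnni1, Tnnc1 and Tpm3 passed. Each of them passed in this 1 of 15 alternatives only, and not with Myh7 as a covariate. Over the alternatives the change ran from 0.18 to 4.04 for Tnnt1 and from 0.27 to 3.96 for Tnni1. It ran from 0.10 to 4.46 for Tnnc1 and from -0.22 to 1.47 for Tpm3. In sedentary muscle the slow median was -0.93 and edgeR adjusted p ran from 0.555 to 0.967.

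Other RNAs moved with age beside these members. The tendon markers summed to 137 to 449.9 CPM in young and 52.9 to 146 CPM in old libraries. Of these 6 markers, 4 were lower over both activities (Tnmd, Fmod, Comp and Mkx). Scx went the other way, by 0.81 ± 0.15 (edgeR adjusted p = 0.00375). The erythroid markers summed to 58.9 to 221 CPM in young and 83.4 to 964 CPM in old libraries. The heart list was at 286 to 854 CPM in young and 40.3 to 208 CPM in old libraries, nearly all of it Actc1, the cardiac actin that skeletal muscle also makes, while the heart genes Nppa and Tnni3 stayed at or below 0.341 CPM and Myh6 at or below 4.6 CPM. The part of tendon and blood RNA in the changes of Tcap, Actn2 and the myomesins was not tested. A term for sex left the average age changes of Tcap (0.68, edgeR adjusted p = 0.00419), Actn2 (1.78, edgeR adjusted p = 0.00687) and Myom1 (0.42, edgeR adjusted p = 0.00298) past the threshold.

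**Figure D3:**
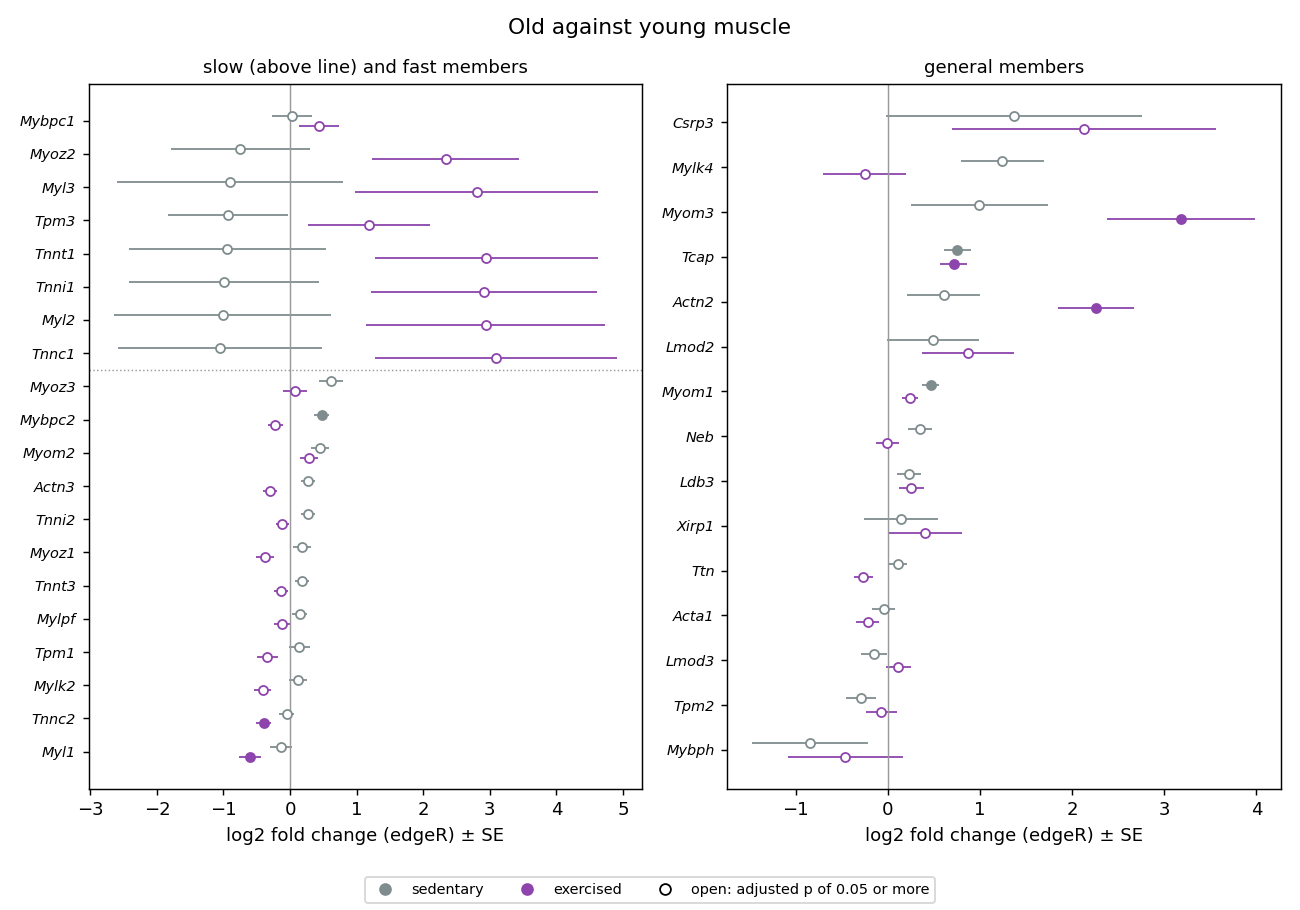
Log2 fold change of old against young muscle from edgeR, ± SE, for the 8 slow and 12 fast members (left) and the 15 general members (right), in sedentary and exercised mice, with filled points for an adjusted p under 0.05. Tcap is filled in both, the slow members have the widest errors, and Actn2 and Myom3 lie furthest to the right among filled points, at 2.26 and 3.18 in exercised muscle.

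Exercise changed no member past the threshold. In young muscle 0 of 35 members passed, beside 0.0131% of all genes, with 18 at an unadjusted edgeR p under 0.05, beside 13%. DESeq2 called 3, namely Actn3, Mybpc2 and titin (Ttn). In 10 members every exercised library was above every sedentary one, beside 9.53% of all genes, and in 1, the leiomodin Lmod3, below, beside 8.72%. The fold changes had opposite signs in the fast and slow sets: all 12 fast members had a positive log2 change, from 0.16 to 0.49 with a median of 0.28, and all 8 slow members a negative one, from -4.72 to -0.30 with a median of -3.75, beside -0.01 for all genes. The slow values rested on young sedentary 1 and 3. Young sedentary 2 lay below every young exercised library for 6 of the 8 slow members and within their range for Tpm3 and Myoz2.

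Actn3, the alpha-actinin of fast glycolytic fibres, measured 9179, 8842 and 8870.3 CPM in young sedentary and 11924, 12076 and 13815 CPM in young exercised muscle, and 11819.9, 10569 and 10066 CPM in old sedentary and 11411, 8851 and 10411 CPM in old exercised muscle. Its young groups did not overlap, and its change with exercise was 0.49 ± 0.111 in young (edgeR adjusted p = 0.166) and -0.08 ± 0.111 in old muscle (edgeR adjusted p = 0.885). Mybpc2 had 0.48 ± 0.118 in young (edgeR adjusted p = 0.197) and -0.21 ± 0.117 in old muscle (edgeR adjusted p = 0.667). Ttn, the giant spring that spans from Z-disc to M-band, read 11921, 11600.4 and 12454 CPM in young sedentary and 13815, 15598 and 15877 CPM in young exercised muscle, and 14411, 11638 and 12761 CPM in old sedentary and 12655, 13117 and 11923 CPM in old exercised muscle. All young exercised libraries were above all young sedentary ones, by 0.33 ± 0.101 (edgeR adjusted p = 0.256). Ttn had the smallest spread of the general members, with an SD of 0.157 on the log2 scale over the 12 libraries. Young sedentary muscle is the reference both for exercise in young and for age in sedentary muscle, so a low value there enters both changes.

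The other fast members of the paralog pairs were plentiful in every library. Tnnt3 read 17628, 20146 and 17168 CPM in young sedentary, 23869, 20560.1 and 21832 in young exercised, 21408, 20777 and 19985 in old sedentary and 22251, 19042 and 18808 in old exercised libraries, with a change with exercise of 0.27 ± 0.105 in young muscle (edgeR adjusted p = 0.318). Tnni2 read 6675, 7547 and 6588 CPM in young sedentary, 9305, 7702 and 7794 in young exercised, 8806, 8332 and 7926 in old sedentary and 7911, 7277 and 7690.1 in old exercised libraries. Exercised libraries of Tnni2 were all above sedentary ones in young muscle and all below them in old muscle. Mylpf read 8629, 7304 and 7852 CPM in young sedentary, 9604, 9771 and 9924 in young exercised, 9612, 8230.3 and 8421 in old sedentary and 10485, 7792 and 8744 in old exercised libraries. The exercised young libraries of Mylpf were the higher ones, by 0.30 ± 0.117 (edgeR adjusted p = 0.318). Fast alpha-tropomyosin (Tpm1) read 15459.6, 16469 and 14958 CPM in young sedentary, 19838, 16466 and 19525 in young exercised, 18338, 17166 and 16197 in old sedentary and 17802, 15559 and 10716 in old exercised libraries. Its lowest library was old exercised 6, the same as for Myl1 and Tnnc2. Myoz1, the fast-fibre myozenin that binds calcineurin at the Z-disc, read 1569.7, 2064 and 1435 CPM in young sedentary, 2337, 1934 and 1944 in young exercised, 2157, 1808 and 1797 in old sedentary and 1632, 1529 and 1635 in old exercised libraries. It overlapped between sedentary and exercised libraries in young muscle, with a change of 0.29 ± 0.136 (edgeR adjusted p = 0.384). Of the fast members outside the pairs, Myoz3 ranged from 49.0 to 115 CPM and Mylk2, the kinase of the regulatory light chain, from 896 to 1532 CPM.

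In old muscle 0 of 35 members passed for exercise, beside 0.582% of all genes, with 0 at an unadjusted edgeR p under 0.05, beside 8.59%, and 0 by DESeq2. Of the 12 fast members, 10 had a negative change, with a median of -0.17 beside 0.01 for all genes, and the slow median was -0.12. Exercised libraries were all higher in 2 members, Actn2 and Ldb3, beside 8.16% of all genes, and all lower in 4, Tnni2, Myoz1, Myoz3 and Mylk4, beside 7.36%. For the difference between the responses, old minus young, 0 members passed, beside 0.0523% of all genes, with 8 at an unadjusted edgeR p under 0.05, beside 15.4%, and 2 by DESeq2, Actn3 and Mybpc2. All 12 fast members had a negative difference, with a median of -0.47, and all 8 slow members a positive one, with a median of 3.80, beside 0.02 for all genes. The smallest p belonged to Mybpc2 at -0.69 ± 0.166 (edgeR adjusted p = 0.112) and Actn3 at -0.57 ± 0.157 (edgeR adjusted p = 0.146). Actn2 was at 1.65 ± 0.566 (edgeR adjusted p = 0.225), with young exercised libraries below 2 of the 3 young sedentary ones and old exercised ones above all sedentary ones. Averaged over both ages, 0 members passed for exercise, beside 0.0457% of all genes, with 7 at an unadjusted edgeR p under 0.05, beside 6.95%, and 0 by DESeq2.

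**Figure D4:**
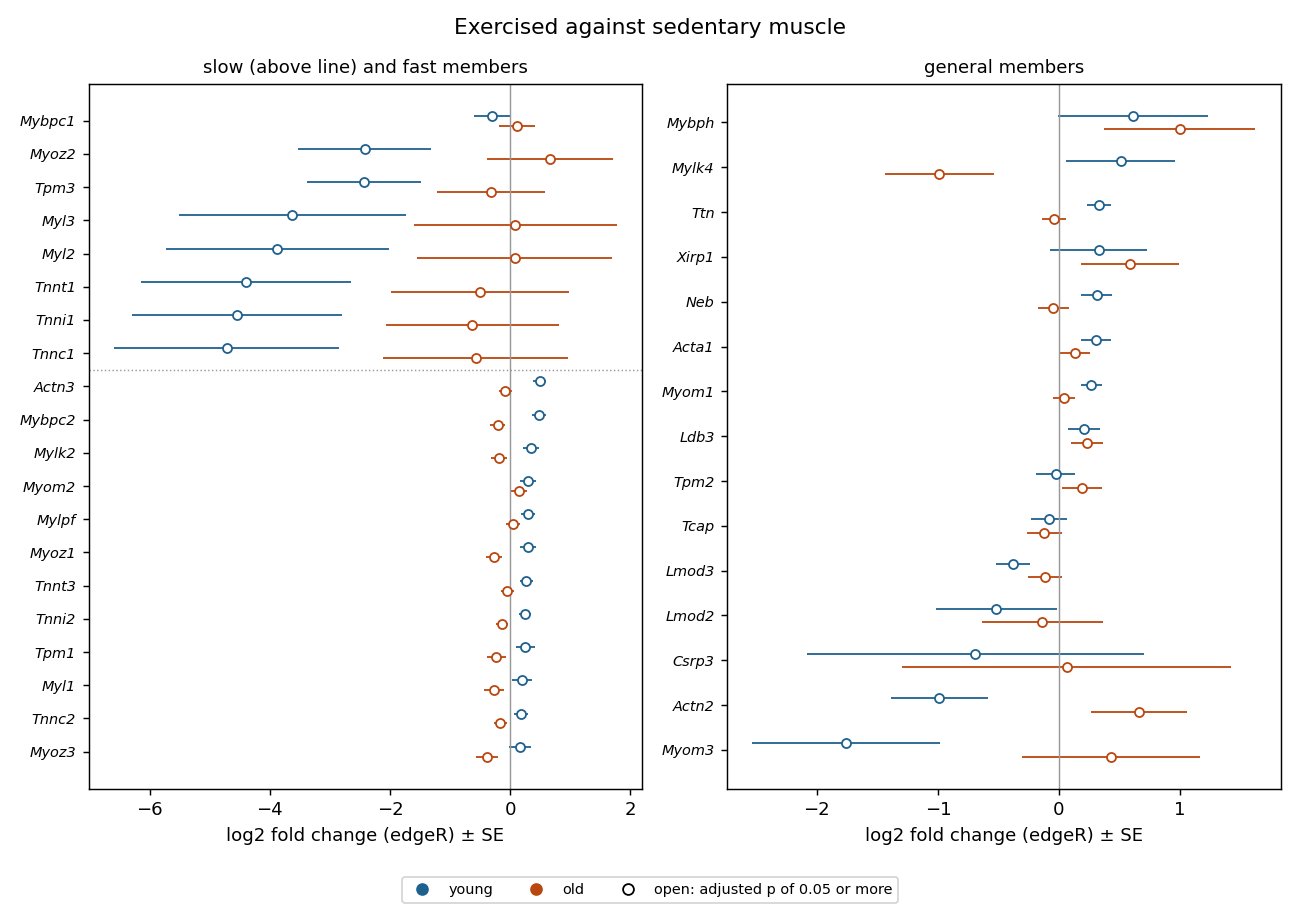
Log2 fold change of exercised against sedentary muscle from edgeR, ± SE, for the slow and fast members (left) and the general members (right), in young and old mice; open points have an adjusted p of 0.05 or more. All points are open, the 12 fast members lie between 0.16 and 0.49 in young muscle, and the 8 slow members lie between -4.72 and -0.30 there with wide errors.

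The ratio of the slow to the fast paralog within a library needs no scaling between libraries. In troponin T, slow per 100 fast counts per kb amounted to 0.287, 0.00480 and 0.636 in young sedentary and 0.00560, 0.0188 and 0.0112 in young exercised muscle, and to 0.00418, 0.354 and 0.0462 in old sedentary and 0.0942, 0.134 and 0.0672 in old exercised muscle. In the essential light chains, Myl3 per 100 Myl1 amounted to 1.77, 0.0334 and 4.80 in young sedentary and 0.0768, 0.281 and 0.0820 in young exercised muscle, and to 0.00562, 3.29 and 0.498 in old sedentary and 1.36, 2.31 and 0.548 in old exercised muscle. Slow troponin T and slow essential light chain thus remained below 1 and 5 per 100 fast counts per kb in all 12 libraries. In the myosin-binding proteins C, Mybpc1 per 100 Mybpc2 amounted to 27.4, 13.3 and 33.0 in young sedentary and 10.5, 21.1 and 11.2 in young exercised muscle, and to 11.4, 19.0 and 23.2 in old sedentary and 18.6, 23.3 and 24.9 in old exercised muscle. This was the highest ratio of the pairs and the one whose exercised groups overlapped between ages.

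Of the 9 pairs, 8 had a higher ratio in every old exercised than in every young exercised library, by 1.53 to 3.59 on the log2 scale. The exact two-sided permutation p of each was 0.1, the smallest that 3 libraries against 3 allow, so the design could not reach 0.05 here. In sedentary muscle 0 of the 9 pairs separated the ages, and 8 of 9 differences were negative. Actn2 per 100 Actn3, general against fast alpha-actinin, amounted to 5.17, 2.54 and 8.5 in young sedentary and 1.96, 2.47 and 1.45 in young exercised muscle, and to 4.06, 8.70 and 8.07 in old sedentary and 12.6, 12.6 and 9.09 in old exercised muscle. Exercised libraries were all below sedentary ones in young muscle, with a log2 difference of -1.33, and all above them in old muscle, with one of 0.78, each with an exact permutation p of 0.1. Of the 9 pairs, this was the only one whose exercised and sedentary libraries separated at either age. Over both activities the ratio was higher in old muscle by 1.51, with a two-sided exact permutation p of 0.03 that was not adjusted over the 9 pairs. For the other 8 pairs this p was between 0.39 and 0.86.

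**Figure D5:**
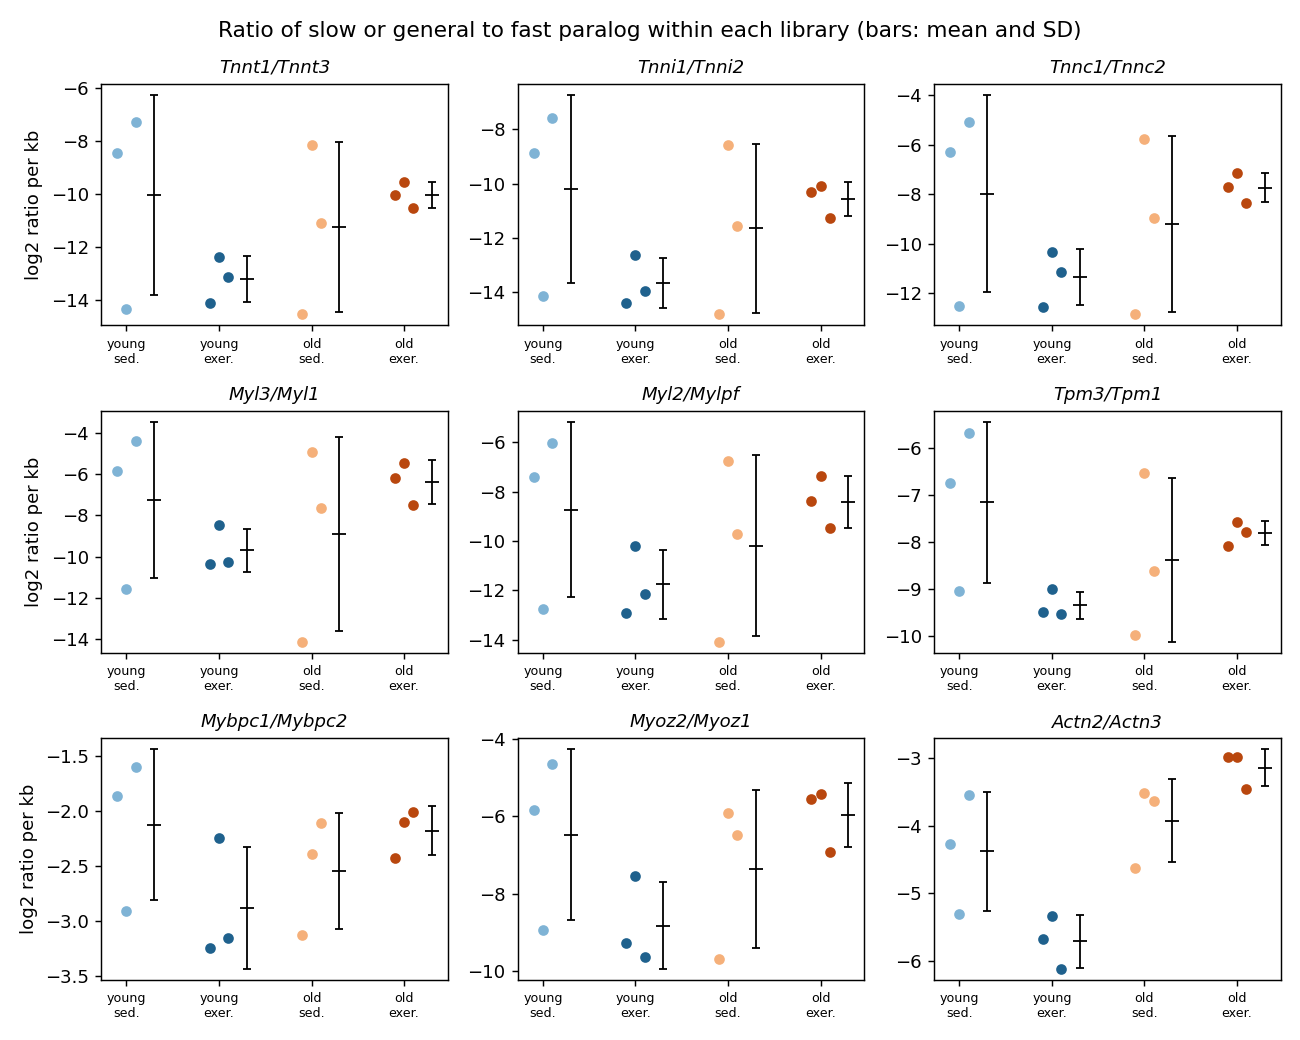
Log2 ratio of the slow or general to the fast paralog, per kb, in each library for the 9 pairs, with bars for the mean and SD of 3 libraries. Sedentary groups span up to several log2 units in the troponins and light chains, old exercised libraries lie above young exercised ones in all pairs but Mybpc1/Mybpc2, and Actn2/Actn3 is lowest in young exercised muscle.

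The remaining general members varied in their own ways. Acta1 read 24669, 24408 and 24039 CPM in young sedentary, 32042, 29970.3 and 28334 in young exercised, 24166, 23789 and 22986 in old sedentary and 31891, 22893 and 22998 in old exercised libraries. The young exercised libraries and old exercised 4 were the highest, and the change with exercise in young muscle was 0.31 ± 0.124 (edgeR adjusted p = 0.338). Csrp3, muscle LIM protein of the Z-disc, had the widest spread of the general members. It read 59.2, 3.32 and 39.8 CPM in young sedentary, 13.7, 22.1 and 27.5 in young exercised, 2.90, 172 and 89.6 in old sedentary and 186, 78.8 and 12.2 in old exercised libraries, so all 4 groups overlapped. Its lowest libraries, old sedentary 4 and young sedentary 2, were also low in the slow members. Lmod2, a leiomodin that lengthens thin filaments, ranged from 34.1 to 194 CPM, and its relative Lmod3 from 92.2 to 152 CPM. Mylk4, a myosin light chain kinase, ranged from 813 to 3657 CPM, Mybph, myosin-binding protein H, from 115 to 682 CPM, and Xirp1, a Xin-repeat actin-binding protein, from 107 to 412 CPM. Nebulin (Neb), which runs along the thin filament, ranged from 5975 to 9190.1 CPM, Ldb3, a Z-disc protein that binds alpha-actinin, from 1440.0 to 2587 CPM, and beta-tropomyosin (Tpm2) from 4242 to 6566 CPM. None of these 10 genes, Acta1 included, passed the threshold in a comparison.

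Other genes of the same apparatus were counted from lists, to be read beside the 8.92% of all genes that rose and the 10.1% that fell with age over both activities. Of 40 further sarcomere and chaperone genes, 18 rose and 2 fell, with a median log2 change of 0.27 beside -0.01 for all genes. Des, the desmin of the intermediate filaments around the Z-disc, rose by 0.60 ± 0.0719 (edgeR adjusted p = 0.000376), Ankrd1, a stretch-responsive partner of titin, by 3.02 ± 0.305 (edgeR adjusted p = 0.000381), Cap2, an actin regulator, by 0.44 ± 0.0569 (edgeR adjusted p = 0.000505), and Myo18b, an unconventional myosin of the sarcomere, by 0.41 ± 0.0684 (edgeR adjusted p = 0.00204). The 2 that fell were Pdlim7 and Palld, which are named because the count was small, after their values were seen. Of the 8 tested cardiac and developmental sarcomere genes out of 12, 4 rose and 1 fell, Ankrd1 being on both lists. Among them Myl4, the embryonic and atrial essential light chain, rose by 1.18 ± 0.158 (edgeR adjusted p = 0.000614), Tnnt2, cardiac troponin T, rose by 1.65 ± 0.288 (edgeR adjusted p = 0.00294), and Actc1 had a change of -2.62 ± 0.521 (edgeR adjusted p = 0.0098).

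Calcium handling sets when these proteins act. Of its 23 genes, 3 rose and 4 fell with age over both activities, beside 8.92% and 10.1% of all genes, with a median of 0.02. Camk2b, a calcium-dependent kinase, rose by 0.85 ± 0.0508 (edgeR adjusted p = 8.33e-06), and Cacng1, a subunit of the calcium channel of the T-tubule, rose by 1.01 ± 0.0926 (edgeR adjusted p = 8.03e-05). Sln, sarcolipin, an inhibitor of the calcium pump, read 1.74, 0.430 and 3.14 CPM in young sedentary, 0.125, 0.437 and 0.211 in young exercised, 18.6, 12.3 and 6.63 in old sedentary and 23.3, 10.7 and 46.9 in old exercised libraries. All old libraries of Sln were above all young ones, with a fitted change of 4.74 ± 0.6 (edgeR adjusted p = 0.00112), although the young libraries held few counts. Casq1, the calcium store protein of fast fibres, had a change of -0.51 ± 0.0912 (edgeR adjusted p = 0.00312). Of 33 genes in the control of fibre type, 3 rose and 0 fell with age over both activities, with a median of 0.03. The count of genes that rose was close to the share of all genes. Those that passed were Nfatc2, a calcineurin-dependent factor, at 0.68 ± 0.14 (edgeR adjusted p = 0.00621), the MEF2 factor Mef2a at 0.33 ± 0.0831 (edgeR adjusted p = 0.0168) and the myogenic factor Myf6 at 0.63 ± 0.175 (edgeR adjusted p = 0.0306). In exercised muscle alone 2 of the 33 rose and 3 fell with age, beside 4.6% and 5.27% of all genes. Lower ones were Ppargc1a at -1.13 ± 0.229 (edgeR adjusted p = 0.0132) and Sox6 at -0.37 ± 0.085 (edgeR adjusted p = 0.0183). Eya1 was lower too, at -0.63 ± 0.149 (edgeR adjusted p = 0.0211). In sedentary muscle alone 4 rose and 0 fell, beside 4.46% and 5.59% of all genes. Of the 4 myosin heavy chains 0 passed in any of the 7 comparisons, with a smallest edgeR adjusted p of 0.139, and exercise called 0 genes of these lists in either age by edgeR.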

How the data were processed

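RNA of 12 libraries, 3 in each of the 4 groups, was analysed from deposited counts. The deposited values are whole-number read counts per gene, made per the file headers with featureCounts; the tools listed in the submitters' processing notes are STAR 2.5.2b, Subread 1.5.2, Trimmomatic 0.36, bcl2fastq 2.20.0.422 and DESeq2, with build GRCm38. Annotation release, strand setting and multi-mapping rule were not given in the sources used here. Gene lengths used for values per kb are the deposited lengths, per the file headers, and coordinates are those of the files. Symbols were found for 48970 of 49315 genes.

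Groups follow age and treatment in the labels. In R 4.3.3, edgeR 4.0.16 kept 15304 genes with filterByExpr (minimum count 10, minimum total 15), scaled libraries by TMM and fitted all libraries in 1 robust quasi-likelihood model of group means (8 residual degrees of freedom). P-values were adjusted by Benjamini-Hochberg over these genes in each of 7 comparisons. SE is the absolute log2 fold change over the square root of F. Ratios of 9 paralog pairs used counts plus 0.5 per kb and two-sided exact permutation tests over libraries. Totals of 23.3 to 27.6 M limit precision for genes near 1 CPM. The procedure was tested on simulated data, in which each gene had the spread typical of its level. The wide spread of the slow members was not reproduced there.

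The members and lists were chosen with earlier results of these data known. Values in every library are given for members past the threshold, members of the pairs, and the 2 general members with the widest and the 2 with the narrowest spread. Of other lists, at most 4 genes past the threshold are named by smallest p, and the heavy chains as levels; Pdlim7 and Palld were added after their values were seen. Alternatives were other scalings, no low-count filter, a sex term, the compared groups alone, each library left out, a replicate block, limma 3.58.1 and DESeq2 1.42.0. A Myh7 covariate and the omission of young sedentary 1 and 2 and old exercised 6 were added after seeing the data.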

Additional observations from a re-analysis of the deposited data

Results flagged for a closer look

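Exercised libraries of Tnni2, fast troponin I, were all above the sedentary ones in young muscle and all below them in old muscle. The log2 changes with exercise were 0.25 ± 0.1 in young (edgeR adjusted p = 0.326) and -0.13 ± 0.1 in old muscle (edgeR adjusted p = 0.764). Their difference, old minus young, was -0.38 ± 0.142 and did not pass the threshold (edgeR adjusted p = 0.235).

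The log2 ratio of Actn2 to Actn3, per kb, separated exercised from sedentary libraries at both ages, with the exercised ones lower in young muscle and higher in old muscle. The changes were -1.33 and 0.78, which differ by 2.11, and this difference was not tested.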

How the results depend on the processing

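The count of members past the threshold was within 1.5 times its main value under each alternative run for exercise in old muscle (0 in 16 of 16), for exercise over both ages (0 in 20 of 20) and for age over both activities (6, and 4 to 7 with 1 library left out). DESeq2 called 3 members for exercise in young muscle and 2 for the difference between the responses, where edgeR called 0. Without young sedentary 1 and 2 and old exercised 6, that difference for Mylk4 was -1.90, beside -1.50 with all libraries. It is a difference between 2 responses to exercise, and the value of -1.90 rests on 1 young sedentary library. With all libraries Mylk4 spanned 842 to 2423 CPM in young sedentary and 1613 to 2192 CPM in young exercised muscle. In old muscle its level was lower with exercise, at 813 to 2410 CPM against 3082 to 3657 CPM when sedentary. For age in sedentary muscle (3), DESeq2 and the Myh7 covariate each called 7, and leaving out 1 library gave 0 to 5, with 0 without old sedentary 5 and 1 without old sedentary 4. For age in exercised muscle (5), the 2 groups alone gave 8, DESeq2 9, the Myh7 covariate 3 and the omission of the 3 libraries 3, while leaving out 1 library gave 1 to 5, with 1 without young exercised 8. The cause of these shifts was not tested. Plain library totals moved the median of all genes by -0.13 on the log2 scale for exercise in young muscle and by 0.17 for the difference between the responses, and turned the sign of Tcap there, of Mybpc1 for age in sedentary, of Tpm2 and Neb for age in exercised muscle, of Mylpf for age and of Tnnc2, Tpm1 and Myoz1 for exercise over both factors. None of these values was called. Plain totals also made the split for age over both activities 5 higher and 2 lower. Old sedentary and old exercised libraries share the numbers 4, 5 and 6. Deviations from the group means correlated at -0.127, 0.0219 and 0.085, and 1 of 3 libraries correlated best with its own number. These values showed no pairing by number, but so few libraries cannot exclude one. With a replicate block, 0 members and 0 of all genes passed for exercise in old muscle, where 0 and 89 passed without it. None of the 54 ratio differences moved by more than the spread between libraries. Depth limits Tnni1, Tnnc1 and Myl3, which fell below 1 CPM in single libraries.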
